A study of Arabidopsis thaliana with 210 samples.

Results

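The genes described here are 10 transcription factor genes of the AP2 family that act in the organising and founding of plant organs, picked by name from the 60886 features of the table. They comprise 7 genes known from the shoot, ANT, AIL5, AIL6, AIL7, DRN, DRNL and PUCHI, and 3 known from the root and embryo, PLT1, PLT2 and BBM. RNA came from nuclei of Arabidopsis thaliana ecotype Col-0, taken from shoot apices of soil-grown seedlings 7 days after germination and given as stem cells in the labels. The groups were 2 bulk wells (1 of p1 and 1 of p2), single nuclei amplified with Smart-seq2 (93 of p1 and 93 of p2), single nuclei amplified with Smart-seq3 (8 of p1 and 12 of p2), and 2 negative control wells that received no nucleus. Smart-seq2 and Smart-seq3 both amplify whole transcripts. The meaning of p1 and p2 is not stated, and no plant, pool or sort is named for any nucleus. Each group was therefore 1 sample, no difference between groups was tested, and every interval covers counting error only. The labels give 50 nuclei per bulk well, whereas the column names of these wells hold the number 10.

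ANT and the AIL genes encode proteins with a pair of AP2 DNA-binding domains. ANT, AIL5, AIL6 and AIL7 promote the start and growth of lateral organs and the upkeep of the shoot meristem, in part redundantly, and the auxin response factor MP is known to activate ANT and AIL6. DRN, DRNL and PUCHI belong to the branch of the family with a single AP2 domain: DRN and DRNL mark founder cells of cotyledons, leaves and floral organs, and PUCHI is known from floral and lateral root primordia. PLT1 and PLT2 maintain the root stem cell niche, and BBM drives embryo identity.

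All 10 genes had a match in the RefSeq annotation of TAIR10.1, which names DRN as ESR1. AIL5, AIL6, AIL7, PUCHI and BBM lie on chromosome 5, DRN, DRNL and PLT2 on chromosome 1, ANT on chromosome 4 and PLT1 on chromosome 3. ANT (AT4G37750) spans chr4:17739514-17742407 on the plus strand and has 8 exons. AIL6 (AT5G10510) spans chr5:3315401-3320323 on the plus strand and has 9 exons. AIL5 (AT5G57390) lies at chr5:23252989-23256703 on the minus strand and AIL7 (AT5G65510) at chr5:26185593-26189571 on the plus strand. DRN (AT1G12980, chr1:4429718-4430965, plus strand), DRNL (AT1G24590, chr1:8714365-8715378, minus strand) and PUCHI (AT5G18560, chr5:6164526-6166040, minus strand) have a single exon in this annotation. The root and embryo genes have 9 exons each: PLT1 (AT3G20840) at chr3:7300444-7303693 and PLT2 (AT1G51190) at chr1:18977176-18980618, both on the plus strand, and BBM (AT5G17430) at chr5:5742393-5745748 on the minus strand. Promoters are shown because auxin response factors, MP among them, are known to bind TGTCTC and TGTCGG. Of the 250 bases before the gene start, 4 of the 7 shoot genes and 2 of the 3 root and embryo genes held TGTCTC or TGTCGG on either strand, against 14.7% of the 27443 promoters of this length in the annotation. TGTCGG alone was in 4.16% of those promoters and TGTCTC in 10.9%. The longest exact run shared between any 2 of the 10 promoters on the coding strand was the 17-base cgacacagaagaaaccg of AIL6 and AIL7. It began 76 bases before the start of AIL6 and 173 bases before that of AIL7, and only these 2 of the 27443 promoters held it. Capitals in the 5 promoters below mark either motif, as its reverse complement where the match is on the opposite strand, and, in AIL6 and AIL7, also the shared 17 bases.
AIL6, chr5:3315151-3315400, plus strand: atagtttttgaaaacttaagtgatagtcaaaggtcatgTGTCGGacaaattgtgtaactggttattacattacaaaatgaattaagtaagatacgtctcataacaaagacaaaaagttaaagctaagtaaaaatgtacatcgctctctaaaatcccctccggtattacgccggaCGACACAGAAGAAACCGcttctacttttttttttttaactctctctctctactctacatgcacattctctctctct
AIL7, chr5:26185343-26185592, plus strand: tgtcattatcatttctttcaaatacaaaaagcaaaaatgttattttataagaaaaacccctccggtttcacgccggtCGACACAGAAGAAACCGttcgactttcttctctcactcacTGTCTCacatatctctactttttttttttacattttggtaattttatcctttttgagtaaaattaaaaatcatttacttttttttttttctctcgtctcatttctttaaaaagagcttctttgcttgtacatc
AIL5, chr5:23256704-23256953, minus strand: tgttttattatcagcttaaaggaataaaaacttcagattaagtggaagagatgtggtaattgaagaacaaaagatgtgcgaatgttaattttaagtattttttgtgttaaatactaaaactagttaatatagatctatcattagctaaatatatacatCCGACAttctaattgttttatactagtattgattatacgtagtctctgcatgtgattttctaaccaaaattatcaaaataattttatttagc
PLT1, chr3:7300194-7300443, plus strand: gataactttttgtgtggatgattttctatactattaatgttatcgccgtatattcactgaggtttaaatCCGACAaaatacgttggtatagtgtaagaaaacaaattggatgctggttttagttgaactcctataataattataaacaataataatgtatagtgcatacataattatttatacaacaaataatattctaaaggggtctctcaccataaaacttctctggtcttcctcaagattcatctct
BBM, chr5:5745749-5745998, minus strand: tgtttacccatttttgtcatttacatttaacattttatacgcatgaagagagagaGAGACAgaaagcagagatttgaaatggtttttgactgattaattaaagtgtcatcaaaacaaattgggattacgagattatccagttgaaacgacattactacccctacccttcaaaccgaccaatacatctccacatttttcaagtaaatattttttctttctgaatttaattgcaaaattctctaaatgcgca

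Shared coding sequence decides whether reads of these genes could be assigned to the wrong member, so the longest exact runs are shown for the pairs with the longest of them and for DRN and DRNL.
PLT1 and PLT2: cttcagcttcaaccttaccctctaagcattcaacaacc
ANT and BBM: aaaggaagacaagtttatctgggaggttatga
AIL6 and PLT1: tacttgggtggatatgacaaagaagataa
AIL5 and AIL7: gacatagatggactggaagatacgaagc
DRN and DRNL: tggctcggaacatttgacacggc
The PLT1 and PLT2 run was 38 bases long and was the longest of all pairs, the ANT and BBM run was 32 bases and the DRN and DRNL run 23 bases. No 50-base run of any of the 10 transcripts occurred elsewhere in the genome on either strand. The 3' end of AIL6 overlaps RBK1 (AT5G10520), on the opposite strand, over 454 bases at chr5:3319870-3320323. Whether reads were counted by strand is not given, so reads in that overlap cannot be told apart.

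Counts on genes came to 1945890 in the bulk well of p1 and 1253317 in that of p2. Smart-seq2 nuclei had a median of 1310185 counts in p1 (range 1362 to 8102382) and 375146 in p2 (range 153 to 1236901), whereas p1 Smart-seq3 nuclei had a median of 55305 and p2 Smart-seq3 nuclei one of 605497. Without a nucleus, the control wells had 7953 and 8676 counts and 0 of any of the 10 genes, which at their summed depth allows up to 180 CPM (counts of the gene per 1e6 counts on genes). A count of any size was seen there for 2.56% of nuclear genes. CLV3, the stem cell peptide gene, had at least 5 counts in 15 of 93 p1 and 5 of 93 p2 Smart-seq2 nuclei, the meristem gene STM in 18 and 26, and the leaf gene RBCS1A in 93 and 87. Most nuclei thus had fewer than 5 counts of CLV3. Shares of the 4 housekeeping genes listed ran from 16.1% (PP2AA3) to 83.9% in p1 and from 10.8% (PP2AA3) to 68.8% in p2. Genes of all cells can thus be missed at 5 counts, so a nucleus without CLV3 cannot be called another cell type. The p1 Smart-seq3 nuclei stood apart in that transposable elements took a median of 17.96% of their counts, against 1.97% in p2 Smart-seq3 and 23.9% in the negative control wells. Results from those 8 nuclei are given separately.

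In the p1 Smart-seq2 wells, counts of ANT were more frequent at replicate numbers aligned with its highest well. Replicate 36 held 15491 counts of ANT. Of the 18 wells aligned with it, which share its block of 8 replicate numbers or its place within a block, 16 (88.9%) had a count of ANT, against 41 of the 74 other p1 wells (55.4%). In p1, all 15 wells with 1 to 4 counts of AIL5 were aligned with a well of at least 100 counts, against 62.3% of the wells with 0. For ANT and AIL6 this comparison could not show a contrast in p1. They had 14 and 10 wells of at least 100 counts, so nearly all wells were aligned with 1 of these. For ANT, 21 of 23 wells with 1 to 4 counts were aligned, against 94.3% of those with 0. All 14 of AIL6 were aligned, as were all its wells with 0. For AIL7, 2 of 4 were aligned, against 64.7%. In p2, 1 of 2 low wells of AIL5 was aligned, against 64.9% of those with 0. The labels do not say whether replicate numbers follow plate positions, and the part of this pattern in the results was not tested beyond the values given here. A nucleus was therefore said to have a gene from 5 counts. At that threshold 9 of the 18 wells aligned with replicate 36 still had ANT, against 25 of the 74 others. Shares are also given with an added rule, chosen after seeing the data, by which a well aligned with a gene's highest well needs 1% of that well's counts.

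**Figure D1:**
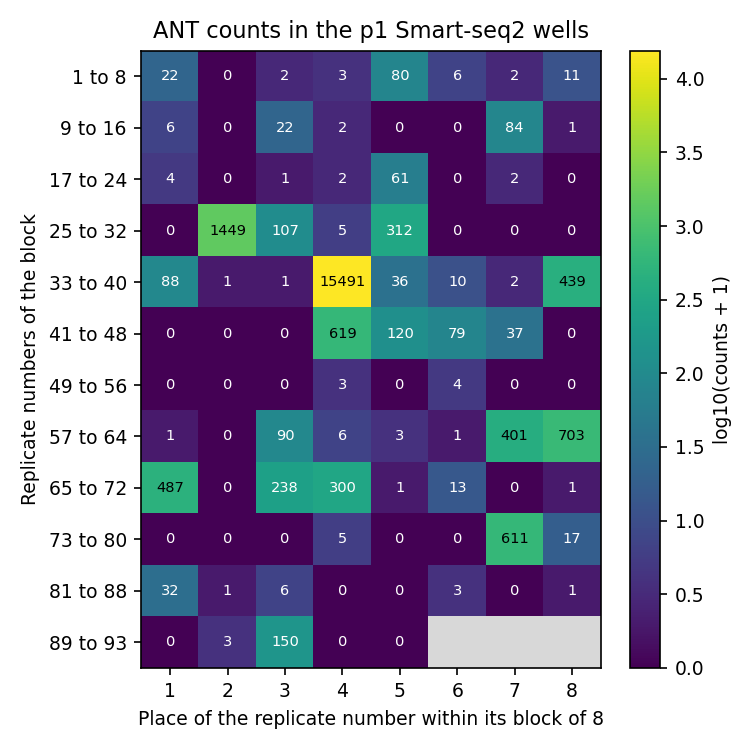
ANT counts in the 93 p1 Smart-seq2 wells, laid out by replicate number in rows of 8. Colour is log10(counts + 1) and each cell prints its count. The highest cell, replicate 36 with 15491 counts, has counts above 0 in most cells of its row and column.

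Among the shoot genes, ANT was found in the largest share of nuclei. It had at least 5 counts in 35 of 93 p1 nuclei (37.6%, Clopper-Pearson 95% interval 27.8 to 48.3%) and 39 of 93 p2 nuclei (41.9%, 31.8 to 52.6%). At this threshold 26.1% (p1) and 26.6% (p2) of the nuclear genes were in at least 10% of nuclei, and 65.2% and 68.1% were in at least 1 nucleus. Among the p1 nuclei with ANT the lowest count was 5, the median 80 and the highest 15491, and among those of p2 the lowest was 6, the median 81 and the highest 587. The p1 sum leaned on replicate 36, which held 69.8% of the 22188 ANT counts at 1912 CPM, whereas the highest p2 nucleus held 9.55% of 6145. Of the 35 p1 nuclei with ANT, 31 had at least 50000 counts in all, while replicate 83 had it with 6 of 4440 counts. Under the added rule for aligned wells, 29 p1 nuclei (31.2%) and 39 p2 nuclei had ANT. At equal depth of 4200 counts, from 1 count, shares were 21.95% of 82 p1 and 20.5% of 83 p2 nuclei.

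**Figure D2:**
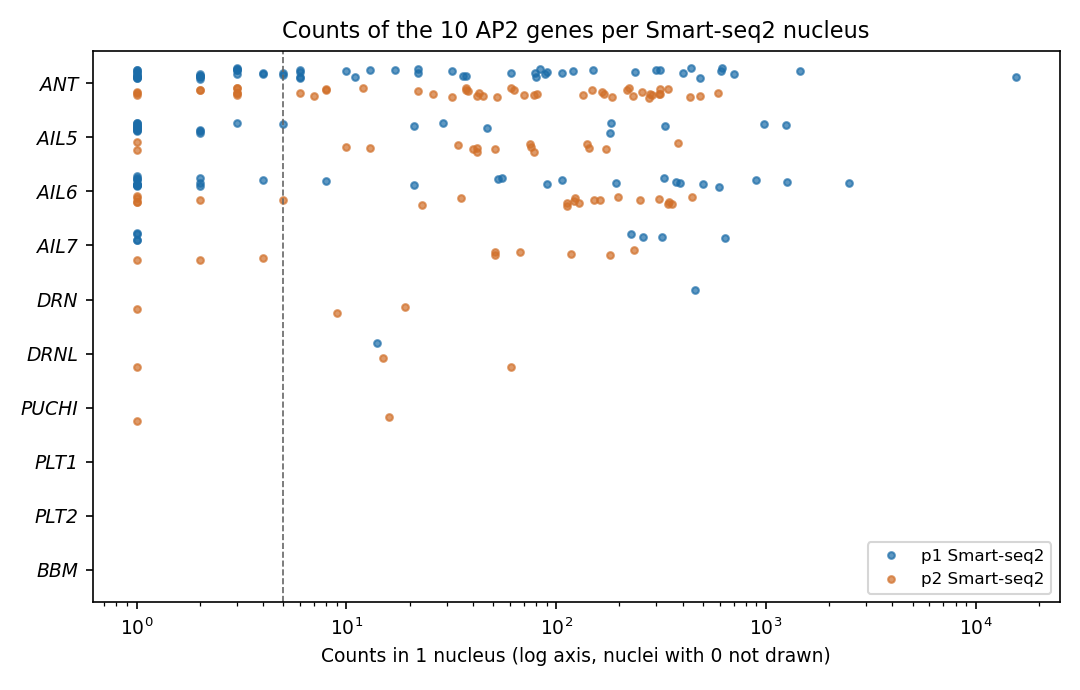
Counts of each gene in each Smart-seq2 nucleus with a count, on a log axis, with p1 and p2 as separate rows of points for each gene. The dashed line marks 5 counts. ANT reaches 15491 counts in 1 p1 nucleus, and PLT1, PLT2 and BBM have no point.

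AIL6, also called PLT3, came next, followed by AIL5. AIL6 had at least 5 counts in 15 p1 nuclei (16.1%, 9.32 to 25.2%) and 17 p2 nuclei (18.3%, 11.02 to 27.6%). Its counts in those nuclei had a median of 326 and a highest value of 2471 in p1, and a median of 151 and a highest value of 446 in p2. AIL5, or PLT5, was in 9 p1 nuclei (9.68%, 4.52 to 17.6%) and 14 p2 nuclei (15.1%, 8.48 to 23.97%). The intervals of AIL6 and AIL5 overlapped in p1 and in p2, while the interval of ANT lay above both at 5 counts. All these shares come from the same nuclei, so overlap of intervals is no test of their order, which was not tested. The intervals of ANT and AIL6 overlapped in p1 under the added rule for aligned wells (21.98 to 41.6% for ANT) and at equal depth, where they were 13.6 to 32.5% for ANT and 4.31 to 18.3% for AIL6 in p1, and 12.4 to 30.8% and 7.70 to 23.9% in p2. In p1 the 9 nuclei with AIL5 had 5, 21, 29, 47, 180, 183, 331, 981 and 1242 counts, and 3 of them held 84.04% of the 3039 counts. In p2 the 14 nuclei had 10 to 381 counts with a median of 63.

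AIL7, or PLT7, was scarcer. It had at least 5 counts in 4 p1 nuclei (4.30%, 1.18 to 10.6%), with 227, 260, 319 and 636 counts, and in 6 p2 nuclei (6.45%, 2.40 to 13.5%), with 51, 51, 67, 117, 180 and 234 counts. Every p1 nucleus with AIL7 thus lay far above the threshold, and no nucleus of either p had between 5 and 50 counts of it. Of the 10 nuclei, 3 also had at least 5 counts of CLV3 (0.968 under independence within p1 and p2, and 1.42 among nuclei of at least 50000 counts), 7 had the meristem gene KNAT1 (3.14 and 3.98) and 4 had the auxin synthesis gene YUC4 (0.817 and 1.08). These 3 genes were named after their values were seen, and no comparison with all genes was made for AIL7. In p2, replicate 43 had 67 counts of AIL7 together with 875 of CLV3 and 92 of WUS, the organising centre gene.

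DRN, DRNL and PUCHI were rare. DRN had at least 5 counts in 1 p1 nucleus (460 counts) and 2 p2 nuclei (9 and 19 counts), and in 1 of 12 p2 Smart-seq3 nuclei (138 counts). DRNL had 14 counts in 1 p1 nucleus and 61 and 15 counts in 2 p2 nuclei. Each of the 3 Smart-seq2 nuclei with DRN also had ANT (611, 81 and 70 counts), as did the Smart-seq3 nucleus (169 counts). Each of the 3 nuclei with DRNL also had ANT (79, 148 and 218 counts). Independence within p1 and p2 would give 1.22 nuclei with both genes for each of the pairs, and 1.51 among nuclei of at least 50000 counts. The rest of these nuclei's content varied: the p2 nucleus with 9 counts of DRN had 563 counts of CLV3 and 131 of STM, the p1 nucleus with 460 had 0 of either and 518 of the primordium gene AS1, and the p2 nucleus with 15 counts of DRNL had 513 of the abaxial gene FIL. DRN and DRNL were not found at 5 counts in the same nucleus. With 1 p1 and 2 p2 nuclei for each gene, this cannot show whether they exclude each other. The p2 nucleus with 61 counts of DRNL also had 1 count of DRN. PUCHI was in 1 p2 nucleus, with 16 counts, together with 115 counts of STM, 230 of KNAT1 and 56 of the boundary gene CUC2 but 0 of ANT.

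PLT1, PLT2 and BBM had 0 counts in all 186 Smart-seq2 nuclei, in both bulk wells and in the 12 p2 Smart-seq3 nuclei. For each group of 93 nuclei this allows a share of nuclei with a count of up to 3.23% (the exact interval reaches 3.89%), and for the deeper nuclei, of at least 50000 counts, up to 5.26% of 57 in p1 and 3.70% of 81 in p2. As 3 counts of a library, the limit is 0.0224 CPM in the p1 sum and 0.0769 CPM in the p2 sum. In the bulk wells it is 1.54 and 2.39 CPM. Counts of a gene come together in single nuclei, so 1 nucleus with a gene can lie above the limits of the sums. The 1 p1 nucleus with DRNL made up 0.105 CPM of the p1 sum, and the 1 with DRN 3.44 CPM. Medians over the 7 shoot genes were 4.30% (p1) and 6.45% (p2) of nuclei, against 0% and 0% over the 3 root and embryo genes. At least 1 count was present for 6 of 7 shoot genes and 0 of 3 root and embryo genes in each bulk well, where 57.6% (p1) and 59.3% (p2) of nuclear genes had a count. The p1 Smart-seq3 nuclei were the exception, with 2 counts of PLT1, 3 of PLT2 and 3 of BBM over 8 nuclei and at most 2 counts in any of them. In the same 8 nuclei the seed gene LEC1 had 15 counts, LEC2 had 9 and the seed storage gene CRA1 had 6, and 62.9% of nuclear genes had at least 1 count. These 3 genes were named after their values were seen. Of the 8 root or seed genes listed, 2 reached 5 counts in a nucleus of this group, LEC1 and CRA1 in 1 nucleus each. WOX5, RHD6, EXPA7, LEC2, FUS3 and OLE1 reached it in 0 of 8. The share of transposable element counts in these nuclei is given above, and its part in these counts was not tested. At 5 counts, where 22.1% of nuclear genes were found in at least 1 of these nuclei, AIL5 was the only shoot gene found (9 and 8 counts in 2 nuclei) and no root and embryo gene was. In p2 Smart-seq3, ANT was in 3 of 12 nuclei (9, 169 and 202 counts) and AIL6 in 2 (142 and 212 counts), with DRN as above, in a group where 30.1% of nuclear genes were found in at least 1 nucleus and 48% had at least 1 count.

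**Figure D3:**
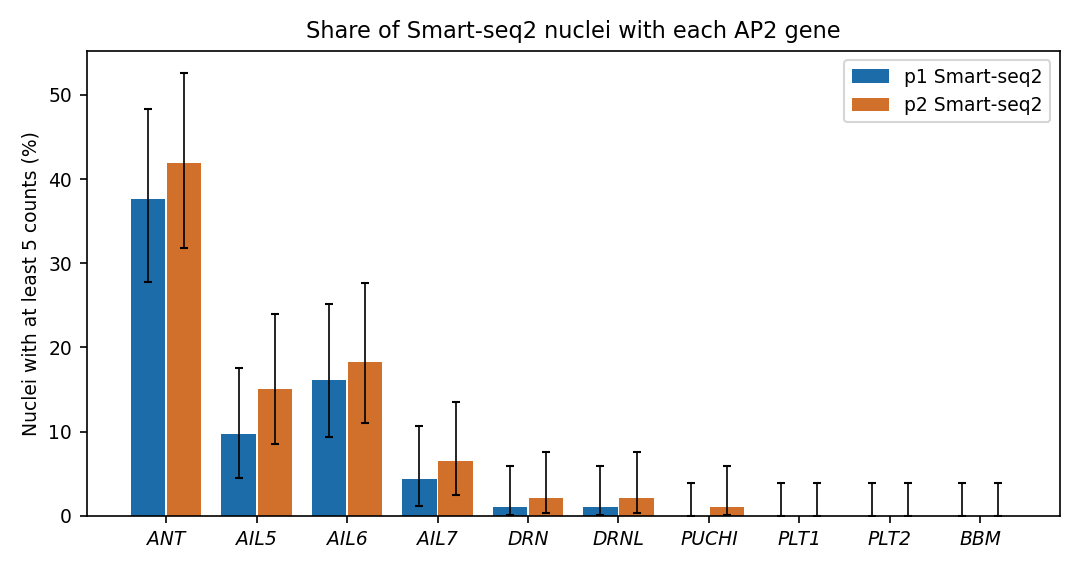
Percentage of the 93 p1 and 93 p2 Smart-seq2 nuclei with at least 5 counts of each gene, as bars from 0 with Clopper-Pearson 95% intervals. ANT stands at 37.6% and 41.9%, and PLT1, PLT2 and BBM at 0%.

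ANT and then AIL6 had the highest levels per kb of transcript in both bulk wells and in both sums of nuclei. Per kb of transcript, ANT had 20.3 CPM in the p1 bulk well and 54.1 in the p2 bulk well, against 76.98 and 73.1 in the sums of p1 and p2 nuclei. AIL6 had 15.5 and 21.8 CPM per kb in bulk, against 20.0 and 30.1 in the sums. DRN, which marks founder cells, had 11.1 and 18.5 CPM per kb in bulk, against 2.75 and 0.596 in the sums. In the p1 bulk well the intervals of ANT (16.2 to 25.1) and AIL6 (12.4 to 19.2) overlapped, as did those of AIL6, AIL5, AIL7 and DRN. In the p2 bulk well the interval of AIL6 (17.1 to 27.3) overlapped those of DRN (12.4 to 26.6) and AIL5 (11.4 to 20.7). The order of these genes was not tested. The 7 shoot genes together took 151 CPM (p1) and 246 CPM (p2) of the bulk wells, against 258 and 295 CPM of the sums, or 143 CPM in p1 and 278 CPM in p2 without the nucleus that held the most counts of them. ANT made up 29.01% and 47.4% of the shoot gene counts in bulk, against 64.3% and 53.4% in the sums. Without replicate 36, ANT made up 37.1% of the shoot gene counts in the p1 sum and stood at 24.7 CPM per kb. In a bulk well, fewer nuclei with a gene and less RNA of it per nucleus cannot be told apart.

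As log2 ratios of CPM, bulk over sum, ANT stood at -1.92 in p1 (-2.25 to -1.62) and -0.44 in p2 (-0.68 to -0.20). Without replicate 36 the p1 value was -0.29, where the median over all genes, each without its own highest nucleus, was 0.72. For AIL5 the ratios were 0.12 (-0.32 to 0.53) in p1 and 0.17 (-0.28 to 0.59) in p2, with intervals that include 0, and for AIL6 they were -0.37 (-0.70 to -0.05) and -0.47 (-0.82 to -0.14). AIL7 was higher in bulk in p1, at 0.93 (0.44 to 1.38), and lower in p2, at -1.51 (-2.72 to -0.52). DRN was higher in bulk in p1 and in p2, with 27 counts in the p1 bulk well against 460 in the p1 nuclei (2.01, interval 1.40 to 2.57) and 29 in the p2 bulk well against 29 in the p2 nuclei (4.96, interval 4.17 to 5.75). All 460 p1 counts were in 1 nucleus. DRNL had a ratio of 5.62 in p1 (10 counts in bulk, 14 in nuclei) and 0.28 in p2 (3 counts in bulk, 77 in nuclei). DRN was the only one of the 6 genes with a ratio in both p that passed 4-fold the same way in both, where 1.3% of 16894 genes did so higher in bulk and 1.59% lower. Its p1 ratio lay at the 4-fold line and did not pass it with library sizes from nuclear genes (1.96), with TMM factors (1.87) or with median of ratios factors (1.92). The median ratio of the 6 genes was 0.52 in p1 and -0.13 in p2, against 0.01 and 0.00 over all genes compared.

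**Figure D4:**
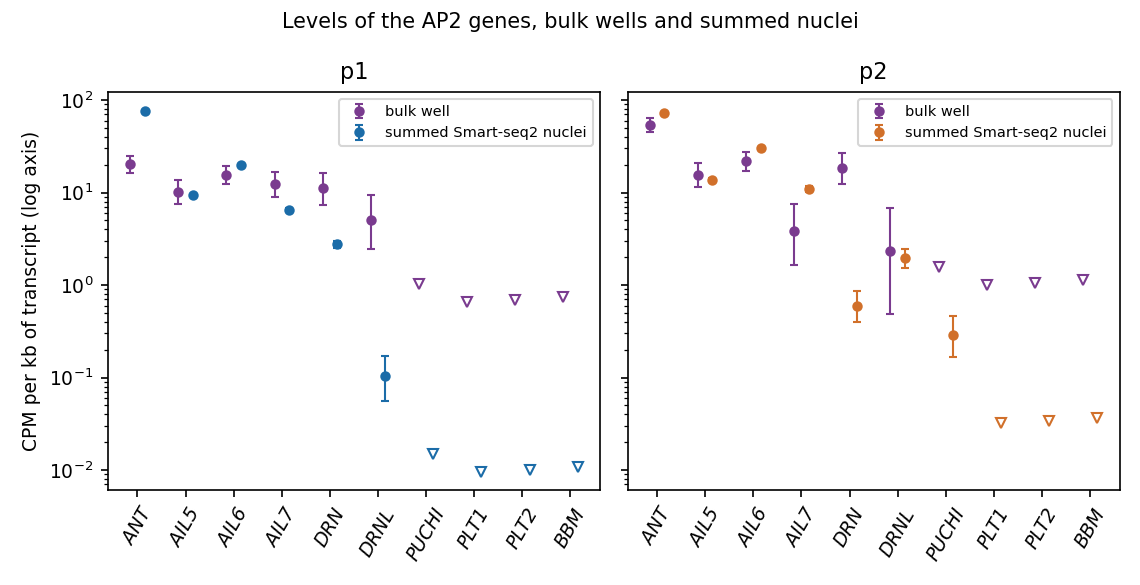
CPM per kb of transcript for each gene in the bulk well (left of each pair) and in the summed Smart-seq2 nuclei (right), for p1 and p2, on a log axis with exact Poisson 95% intervals. Open triangles mark the level that 3 counts would give where the count was 0. DRN stands at 11.1 and 18.5 in bulk, above 2.75 and 0.596 in the sums.

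Counting any of the 10 genes at 5 counts, 42 of the p1 nuclei were positive (45.2%, 34.8 to 55.8%), and so were 51 of the p2 nuclei (54.8%, 44.2 to 65.2%). In p1, 12 nuclei had 2 of the genes, 4 had 3 and 1 had 4, and in p2, 15 had 2, 6 had 3 and 1 had 4. The p1 nucleus with 4 genes had 611 counts of ANT, 21 of AIL5, 55 of AIL6 and 460 of DRN. The p2 nucleus with 4 had 148 of ANT, 143 of AIL5, 197 of AIL6 and 61 of DRNL. All 12 nuclei with at least 3 of the genes had ANT, with 6 to 619 counts. ANT itself counted toward the 3 and was the most frequent of the genes, so this is no test of a link. Detection went with depth: the median total was 1852462 counts in nuclei with ANT against 24979.5 without it in p1, and 504084 against 317068 in p2. Overlaps are therefore given also for the 138 nuclei with at least 50000 counts.

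ANT, AIL5 and AIL6 were found together more often than independence within p1 and p2 gives, also among the deep nuclei. Of the 5905 genes compared there, 57.1% were in a larger share of nuclei with ANT than without it in p1 and in p2. Both ANT and AIL5 were in 17 Smart-seq2 nuclei, against 9.26 under independence, and against 11.6 among deep nuclei. AIL5 was in 24.3% of the 70 deep nuclei with ANT and 8.82% of the 68 without it. Both ANT and AIL6 were in 21 nuclei, against 12.8 under independence and 16.3 among deep nuclei. The share of deep nuclei with AIL6 was higher by a mean of 13.5 percentage points in nuclei with ANT than in those without it. Of the 5905 genes compared, 1168 had a larger difference, and the median over all 5905 was 6.99 points. Both AIL5 and AIL6 were in 9 nuclei, against 4.01 and, among deep nuclei, 5.31. Between ANT and AIL6, the Pearson r of log2(CPM + 10) was -0.01 across all p1 nuclei and 0.17 across all p2 nuclei. These r include shallow wells, where a few counts give a high CPM. In p1, 1 count of AIL6 gave 497 CPM in replicate 87, and 5 counts of ANT gave 1155 CPM in replicate 28. No r was taken over deep nuclei alone, so how far the levels are related cannot be read from these r. They share libraries and depth and are descriptions.

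Of the genes in the pathway lists, CYCD3;1 differed most between nuclei with and without ANT. CYCD3;1 encodes a D-type cyclin whose expression ANT is known to prolong in growing organs. Among deep nuclei it had at least 5 counts in 54.8% of those with ANT and 19.2% of those without in p1, and in 56.4% and 30.95% in p2. Only 5 of the 5905 genes compared had a larger mean difference. Against the 57.1% of genes in a larger share of nuclei with ANT in both p, 5.96% were in a smaller share in both. The median difference was 7.52 percentage points over the 36 genes of the pathway and marker lists, of which 19 were higher in both p and 2 lower, against 6.99 points over all genes. The lists as a whole were therefore close to the background. By list, the partners and targets had 4 of 6 compared genes higher in both p, the AP2 relatives 5 of 5, the cell division genes 3 of 3, the organ primordium genes 2 of 3 and the meristem genes 1 of 4. The epidermal and mesophyll genes had 0 of 4 each, and the housekeeping genes 1 of 4, with 2 lower.

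MP, the auxin response factor, was in 33.3% of p1 and 52.9% of p2 deep nuclei with AIL6, against 28.6% and 20.3% of those without it. Among deep nuclei, both AIL6 and MP were in 14, against 9.09 under independence. For ANT and MP these numbers were 25 against 19.8. The mean difference of MP was 18.7 percentage points with AIL6 and 14.6 with ANT, against medians of 5.69 and 6.99 over all genes. Of the 5905 genes compared, 495 had a larger difference with AIL6 and 938 a larger one with ANT. STM, the meristem homeobox gene, was in fewer deep nuclei with AIL6 than without it in p1 (6.67% with and 38.1% without), but the shares lay close together in p2 (29.4% and 32.8%). Of the 5905 genes compared, 5879 had a mean difference with AIL6 above that of STM. The other meristem genes compared had higher mean shares with AIL6: KNAT1 was in 66.7% of deep nuclei with AIL6 and 33.3% of those without in p1, and in 47.1% and 35.9% in p2, and the mean differences of KNAT2 and KNAT6 were 12.1 and 11.7 percentage points. The median over the 4 meristem genes was 11.9 points, against 5.69 over all genes compared. With ANT the STM shares went opposite ways, at 35.5% with and 23.1% without in p1, and 28.2% and 35.7% in p2. Of the 5905 genes, 42.8% were in a larger share of deep nuclei with AIL6 than without in both p and 8.99% in a smaller share. For AIL5 these were 31.4% and 19.6% of 5906 genes. The boundary gene CUC1 was in 7 nuclei with AIL6, against 1.95 under independence and 2.47 among deep nuclei, with 11 nuclei in all. CUC1 was named after its values were seen and was too rare for the comparison with all genes. Of the 4 boundary genes listed, 2 were in a larger share of all nuclei with AIL6 in both p, and 0 in a smaller share. CUC2 went opposite ways, in 0 of 15 p1 nuclei with AIL6 and 3 of 78 without, and in 2 of 17 and 3 of 76 in p2. A link of AIL6 with boundary genes was not tested.

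**Figure D5:**
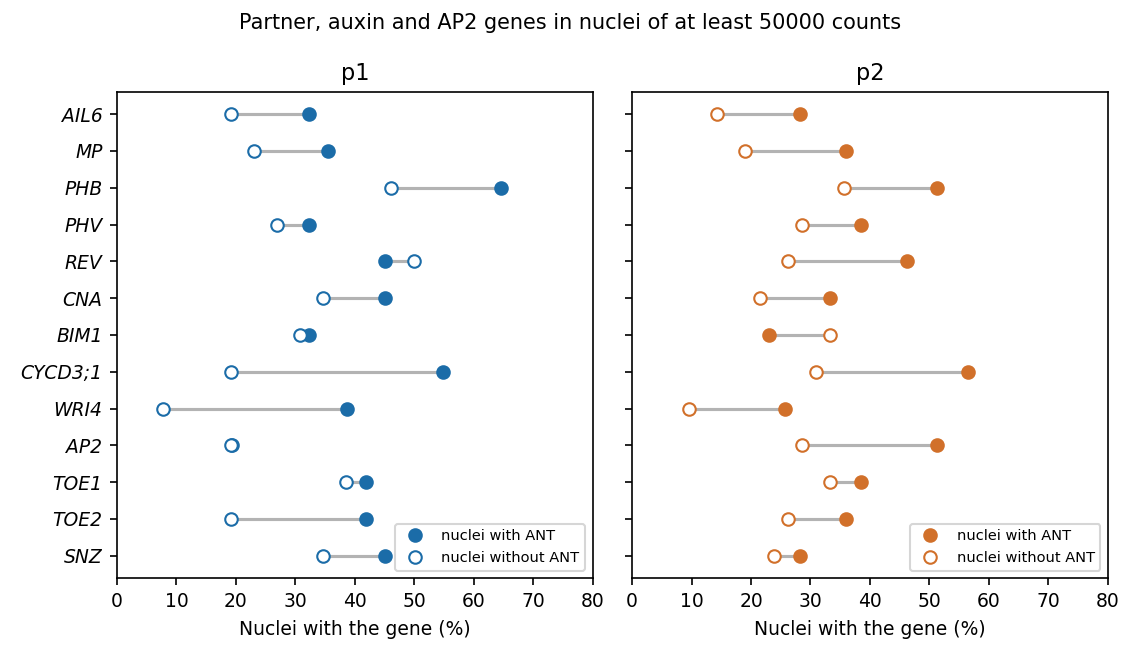
Percentage of Smart-seq2 nuclei of at least 50000 counts that had at least 5 counts of each listed gene, among nuclei with ANT (filled) and without ANT (open), for p1 and p2. CYCD3;1 stands at 54.8% with and 19.2% without ANT in p1, and at 56.4% and 30.95% in p2.

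The pathway genes themselves were found as follows in Smart-seq2 nuclei. Of the 6 auxin genes all were in at least 1 nucleus of p1 and of p2, among them MP (18.3% of p1 and 23.7% of p2) and ETT, an auxin response factor of organ polarity (13.98% and 9.68%). Of the 10 partners and targets 9 were, led by PHB (38.7% and 37.6%) and REV (31.2% and 32.3%), homeobox genes of adaxial fate, of a class whose proteins are known to bind DRN, and by CYCD3;1 (24.7% and 37.6%). LFY, the floral identity gene that ANT and AIL6 are known to activate, was in 0 of 93 in both, with 5 counts in the p1 bulk well. Of the 10 other AP2 relatives 9 were, among them TOE1 (24.7% and 31.2%), SNZ (24.7% and 22.6%) and TOE2 (19.4% and 26.9%), repressors of flowering. The highest share of this list in p2 was that of AP2 (11.8% of p1 and 34.4% of p2). AIL1 was in 0 of 93 nuclei of p1 and of p2, with 0 counts in both bulk wells.

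ANT and AIL6 were the only members in at least 10% of nuclei of p1 and of p2, and were compared with the other genes of the same detection (5906 genes in all). The genes with the highest mean Pearson r of log2(CPM + 10) with ANT over the 93 p1 and 93 p2 nuclei were AT4G23860 (0.37), HMGB6 (0.36) and AT2G43110 (0.36). For AIL6 they were the gene annotated as GRF7 (AT3G02520, 0.37), AT5G55670 (0.37) and TBP1 (0.33). By mean Spearman rho none of the 6 stayed among the first 3: the first for ANT were then AT2G07708, AT2G07717 and AGP31, and those for AIL6 were CBR, PGM2 and GLE1. By rank of mean r, AIL6 was 2076th for ANT and ANT was 1649th for AIL6. These values are low, share depth across nuclei and are given as a description. They include the shallow nuclei, where a few counts give a high CPM, and were not taken over deep nuclei alone.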

How the data were processed

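The values are estimated counts as deposited, with 11.2% of those above 0 not whole, and were rounded before use. Per the submitters' processing notes, the genome build was TAIR10 and DESeq2 was used, with no role or version. The aligner, the counting program, the strand setting and any filters are not given in the sources used here, and reads near the AIL6 3' end or from shared runs could be affected by them. The bulk wells carry the labels' 50 nuclei and a column prefix with 10. Library sizes were summed over 29696 genes, without transposable elements and the reporter.

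Members and lists were chosen with earlier results of these data known, and the rule for low aligned wells was chosen after seeing the data. All 78 listed genes matched the TAIR10.1 annotation. A nucleus had a gene from 5 counts. Shares carry Clopper-Pearson 95% intervals, sums exact Poisson intervals and ratios intervals from the exact binomial distribution. These cover counting error only, because reads carry no molecular identifiers in this table. A count of 0 was set at 3 counts for limits. Ratios of bulk over summed nuclei were kept for nuclear genes (29417 in all) whose counts in the 4 libraries reached 50, and were called past 4-fold in p1 and in p2. The number under independence is the product of both shares within p1 and within p2, summed. Named genes were the 10 members, the 3 most frequent and the absent genes of each pathway list, and the 3 genes most like each member found in 10% of nuclei, and 1 listed gene is not reported here. Marker genes and WUS, YUC4, CUC1, CUC2, FIL and AS1 values were chosen for naming after they were seen. No 2 wells held identical values, and doublets were not screened in these wells of 1 sorted nucleus. Calculations used Python 3.11.15, numpy 2.4.6, scipy 1.17.1, pandas 2.3.3, R 4.3.3 and edgeR 4.0.16 (TMM and median of ratios factors only), and the ratio and likeness steps were tested on simulated data.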

Additional observations from a re-analysis of the deposited data

Results flagged for a closer look

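In p1 Smart-seq3 (8 nuclei) the highest nucleus lay far from the others for 5 genes. It reached 38.97 CPM for ANT, 17.5 CPM for AIL6, 58.5 CPM for PUCHI, 38.97 CPM for PLT2 and 38.97 CPM for BBM, each from at most 3 counts. The critical value used sets about 1 in 20 groups apart by chance for values without ties, and its rate for groups of single counts and zeros was not measured. For ANT, AIL6, PLT2 and BBM most of the 8 nuclei had 0 counts, and 4 had a count of PUCHI.

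AIL7 went opposite ways between bulk wells and summed Smart-seq2 nuclei, with a log2 ratio of 0.93 in p1 and -1.51 in p2. The difference between p1 and p2 was not tested. The counts were 40 in the p1 bulk well and 1446 in the p1 nuclei, and 8 in the p2 bulk well and 707 in the p2 nuclei.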

How the results depend on the processing

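The summed level of the 7 shoot genes in p1 was 258 CPM, and 302 CPM with library sizes from nuclear genes, 224 CPM with equal weight per nucleus and 143 CPM without the nucleus with the most counts of them. In p2 it was 295 CPM, and 363, 279 and 278 CPM in the same order. The number of members past 4-fold between bulk and summed nuclei was 1, and 0 with library sizes from nuclear genes, 0 with TMM factors, 0 with median of ratios factors and 2 without each gene's highest nucleus. The log2 ratio of AIL6 in p1 turned to 0.18 without its highest nucleus, a setting that moved the median of all genes to 0.72 in p1 and 0.53 in p2, while TMM moved it to -0.13 and -0.17. The cause was not tested. Of the other comparisons of single genes, 221 stayed within the spread or interval of their value and 70 did not. The median share over the root and embryo genes was 0% in Smart-seq2 under all alternatives run, and 25% in p1 Smart-seq3 from 1 count. Member counts in the negative control wells were 0 without either well in turn, the range being 0 to 0. No paired analysis was possible because each group was 1 sample and replicate numbers do not pair nuclei. Depth limits the shares: 36 p1 and 12 p2 Smart-seq2 nuclei had fewer than 50000 counts.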

Other observations

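Other members of the family in the shoot apex nuclei showed their own patterns, named here after their values were seen. AP2, the floral homeotic gene, was in 11.8% of p1 and 34.4% of p2 Smart-seq2 nuclei at 5 counts. WRI4, a gene of cuticular wax synthesis, was in 15.1% of both. WRI4 was in 22 nuclei together with ANT, against 11.1 under independence and 14.4 among nuclei of at least 50000 counts, and 90 of 5905 genes had a larger mean difference between deep nuclei with and without ANT. SMZ, a repressor of flowering, was in 12.9% of p1 and 5.38% of p2 nuclei, and WRI1, a regulator of seed oil synthesis, in 9.68% of both.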
